A study of Homo sapiens with 20 samples.

Results

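The 10 genes described here were chosen by symbol from the 24196 genes of the deposited expression table. They are 4 cadherins (CDH1, CDH2, CDH6 and CDH11), the epithelial adhesion gene EPCAM, the intermediate filament gene VIM and 4 transcription factors of epithelial-mesenchymal transition (ZEB1, ZEB2, SNAI2 and TWIST1). All 10 were found in the table. They were followed in 8 RNA-seq libraries of OVCAR8, a human ovarian cancer cell line, of which 4 were labelled PBS and 4 gluconate. The table heads its columns only C and T with a number, and every group, replicate number and direction given here rests on reading C as PBS and T as gluconate, which the sources used here do not state in words. The labels describe orthotopic tumors, and the study's methods describe an efficacy experiment in which OVCAR8-sgNC-luc cells, which carry a non-targeting guide and luciferase, were implanted at the ovarian fat pad of NSG mice, an immunodeficient strain, at 6 weeks of age. In that experiment PBS or sodium gluconate at 1 mg/kg was given i.p. once a week for 35 days, so both groups shared the cells, the host and the injections. The study's results text calls the same comparison one of treated cells, and the labels were followed here. The other 12 libraries of the series, of CHP1 or TMEM87A knockout cells and their controls, were not analysed here.

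Epithelial-mesenchymal transition is the loss of epithelial adhesion and the gain of a motile, mesenchymal state. E-cadherin, the product of CDH1, holds epithelial cells together, and its replacement by N-cadherin, the product of CDH2, is the classical cadherin switch. The factors ZEB1, ZEB2, SNAI2 and TWIST1 repress epithelial genes or activate mesenchymal ones, and the ZEB factors and SNAI2 bind E-boxes such as CACCTG. The miR-200 family and miR-205 hold ZEB1 and ZEB2 down in epithelial cells, and the ZEB factors repress the miR-200 genes in return. Many ovarian cancer lines carry epithelial and mesenchymal genes side by side.

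The mature miRNAs of this loop are printed because matches of both miR-200 seeds were found in ZEB1 and ZEB2 and in no other member, while miR-205-5p is shown as the other miRNA of the loop. They were read from RefSeq on GRCh38.p14, 5′ to 3′, with the seed (bases 2 to 8) in capitals. The first 3 share 1 seed, the next pair share another, and miR-205-5p has its own.
hsa-miR-200b-3p, chr1:1167160-1167181, plus strand: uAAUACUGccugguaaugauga
hsa-miR-200c-3p, chr12:6963742-6963764, plus strand: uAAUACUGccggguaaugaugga
hsa-miR-429, chr1:1169055-1169076, plus strand: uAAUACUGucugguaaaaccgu
hsa-miR-200a-3p, chr1:1167916-1167937, plus strand: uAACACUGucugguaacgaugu
hsa-miR-141-3p, chr12:6964155-6964176, plus strand: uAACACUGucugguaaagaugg
hsa-miR-205-5p, chr1:209432166-209432187, plus strand: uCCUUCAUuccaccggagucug

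In DNA letters, the seed of miR-200b, miR-200c and miR-429 matches CAGTATT. The seed of miR-200a and miR-141 matches CAGTGTT, and that of miR-205 matches ATGAAGG. No such matches can overlap each other. They were counted on the transcript strand in the longest annotated 3′ UTR of each gene (GENCODE 29, GRCh38). ZEB1 held 6 matches of the first seed, 3 of the second and 1 of miR-205 in 2549 bases, and ZEB2 held 5, 4 and 0 in 5370 bases. Both thus held 9 miR-200 matches, a number reached by 6 of the 19113 genes with an annotated 3′ UTR (0.0314%). Among the 1064 genes with a 3′ UTR at least as long as that of ZEB2, 4 reached it (0.376%). The first seed was matched in 16.0% of all 3′ UTRs, the second in 18.2% and miR-205 in 11.6%. Long 3′ UTRs hold matches more often, and among the 4333 genes whose 3′ UTR was at least as long as that of ZEB1 the shares were 41.6%, 44.8% and 30.5%.
Of the other members, CDH6 held 2 matches of the first seed, CDH11 held 1 of the first seed and 3 of miR-205, SNAI2 held 1 of the first seed, and CDH1, CDH2, EPCAM, VIM and TWIST1 held none of the 3. The first 3 miR-200 matches in the 3′ UTRs of ZEB1 and ZEB2 are shown, 5′ to 3′ on the transcript strand, with the match in capitals.
ZEB1, chr10:31527622-31527650, plus strand: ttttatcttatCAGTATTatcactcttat
ZEB1, chr10:31527716-31527744, plus strand: taaatccgcttCAGTATTttattatgttt
ZEB1, chr10:31528035-31528063, plus strand: atcatcagaatCAGTGTTtgtgattgtgt
ZEB2, chr2:144389226-144389254, minus strand: aaaattttgtaCAGTGTTaaggcctaaaa
ZEB2, chr2:144389042-144389070, minus strand: ctaccatacatCAGTATTtttattattat
ZEB2, chr2:144388979-144389007, minus strand: ctacaatgcatCAGTATTatgattcctct

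Promoter windows from 250 bases before to 50 bases after a start were in RefSeq's table (GRCh38.p14) for 4 of the 10 genes. The E-box CACCTG was searched on both strands, where it reads CACCTG or CAGGTG. It was in 20.6% of all 35116 windows and in 2 of the 11 windows of these 4 genes, both of them at starts of ZEB1. The windows of VIM, ZEB2 and CDH2 held 0 of these letters. A window of ZEB1 with 1 E-box and another with 3 are each represented by a match, in capitals.
ZEB1, chr10:31318348-31318377, plus strand: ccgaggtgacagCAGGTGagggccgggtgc
ZEB1, chr10:31319119-31319148, plus strand: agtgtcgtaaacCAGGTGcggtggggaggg
Such a match describes letters in a window and not the binding of a factor. The polyA libraries measured genes, not mature miRNAs. MIR200CHG, the host gene of miR-200c and miR-141, was listed at 0 FPKM in 7 libraries and at 0.0666 FPKM in gluconate replicate 4.

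The libraries differed in depth. PBS replicate 4 held 3953206 fragments against 39325749 to 46551535 in the other 7, and 15514 of its genes were above 0 against 19991 to 20251. Its Pearson's r with the others over tested genes was 0.938 to 0.951, while the lowest r among the other 7 was 0.98. The members are therefore compared with and without PBS replicate 4. The labelled cell type was checked on markers of ovarian carcinoma. PAX8, a Müllerian lineage factor, was at 32.4 to 50.7 FPKM, and the keratins KRT8, KRT18 and KRT7 were at 124 to 1051 FPKM, while MUC16, KRT19 and SOX17 were at 0.216 FPKM or less in all 8 libraries. WT1 was at 6.58 FPKM in PBS replicate 4 and at 1.07 to 1.82 FPKM in the other 7. Among markers of other cells, PTPRC, CDH5, CLDN5, PDGFRA, DCN and FSHR were at or near 0, with a highest value of 0.0388 FPKM. The other fibroblast markers were uneven, with COL1A1 at 41.4 to 182 FPKM, LUM at 1.70 to 5.18, PDGFRB at 1.28 to 3.41 and COL3A1 at 0.230 to 2.25 FPKM, while COL1A2 was at 0.0678 FPKM or less and THY1 at 0.125 FPKM or less. Summed over each list, fibroblast markers were at 44.7 to 190 FPKM, mesothelial markers were at 107 to 175 FPKM, which rested on MSLN, myeloid markers at 20.8 to 28.9 FPKM, which rested on CD68, endothelial markers at 6.31 to 9.14 FPKM, which rested on EGFL7, skeletal muscle markers at 1.54 to 5.06 FPKM and adipocyte markers at 0.335 FPKM or less. Of the carcinoma markers, KRT7 differed between the groups at an unadjusted p of 0.0201 (log2 difference 0.73, SE 0.26, adjusted p = 0.740 from limma), and its log2 difference was 0.48 (SE 0.19) without PBS replicate 4. In such bulk samples, fewer cells of a type and less RNA per cell cannot be told apart.

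VIM, CDH2 and EPCAM had the highest mean levels of the 10 members, and CDH1 and CDH6 the lowest, though in PBS replicate 4 ZEB2, CDH11 and TWIST1 were above EPCAM and ZEB2 was above CDH2. FPKM scales fragments by the length of the gene and the depth of the library, so it allows levels of different genes to be compared. Over the 7 libraries without PBS replicate 4, VIM was highest at a mean of 1618 FPKM, followed by CDH2 at 22.6, EPCAM at 17.7, TWIST1 at 9.24, ZEB2 at 6.59, SNAI2 at 5.30, CDH11 at 4.57, ZEB1 at 2.99, CDH1 at 0.0878 and CDH6 at 0.0309 FPKM. The ranges of neighbours in this order did not overlap between VIM and CDH2, between EPCAM and TWIST1, between CDH11 and ZEB1 and between ZEB1 and CDH1. The ranges of CDH2 and EPCAM, of TWIST1, ZEB2, SNAI2 and CDH11 from each to the next, and of CDH1 and CDH6 overlapped. With PBS replicate 4 included, ZEB2 moved to the fourth place and CDH11 to the sixth. CDH1 and CDH6 had a mean below 0.5 FPKM and were not among the genes tested, so 8 of the 10 members were.

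**Figure D1:**
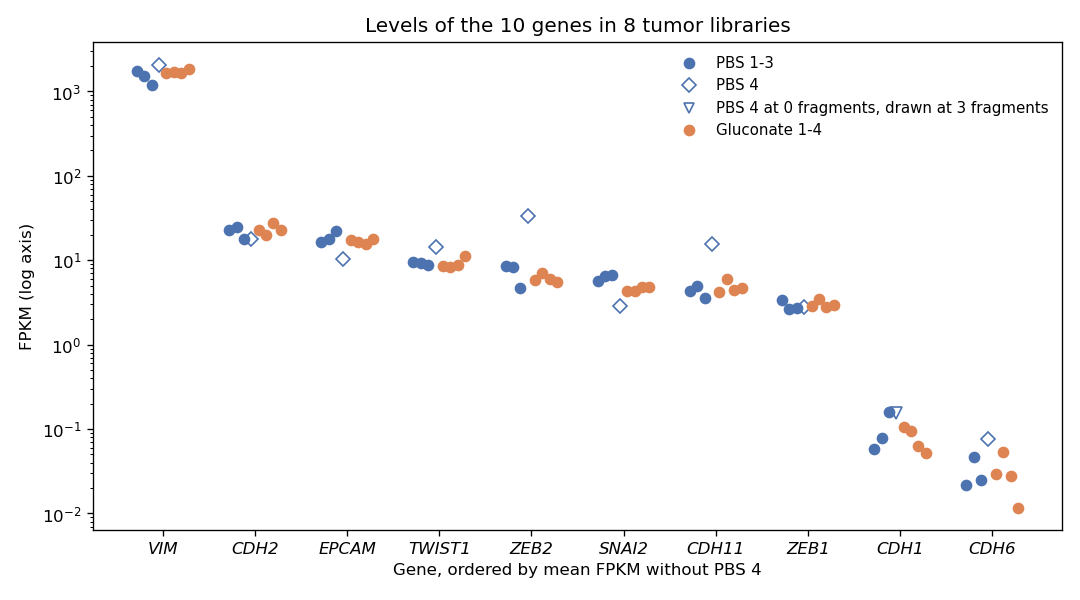
FPKM of each gene (log axis) in PBS replicates 1 to 3 (filled blue), PBS replicate 4 (open blue diamond) and the 4 gluconate replicates (orange), with CDH1 in PBS replicate 4, at 0 fragments, drawn as a triangle at the FPKM of 3 fragments. VIM stands at 1206 FPKM or more in every library, and CDH1 and CDH6 stand below 0.2 FPKM.

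Between the PBS and gluconate tumors, 0 of the 8 tested members passed an unadjusted p under 0.05 in limma's moderated test on log2(FPKM + 0.1), against 577 of 12486 genes (4.62%). Of those 577 genes, 391 were higher and 186 lower in gluconate tumors, and scaling by median ratios gave 368 higher and 350 lower. Without PBS replicate 4, 357 of 778 such genes were higher and 421 lower, so the balance of directions turned with that library. After Benjamini-Hochberg adjustment, 0 genes had an adjusted p under 0.05 from limma. The same was true of limma's voom on the recovered fragments, which gave 594 genes at an unadjusted p under 0.05. The groups did not overlap in 0 of the 10 members, against 3.49% of the genes tested. Without PBS replicate 4, SNAI2 alone passed an unadjusted p under 0.05, which is 1 of 8 tested members beside 6.21% of all genes. It was also the 1 member of 10 whose groups did not overlap then, beside 6.10% of all genes. Where 1 gene of so short a list is called, its share cannot be set apart from that of all genes.

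SNAI2, the factor SLUG that represses E-cadherin, was lower in every gluconate tumor than in PBS replicates 1 to 3. The gene lies on chromosome 8 from 48917598 to 48921429 (GRCh38.p14). Its FPKM was 5.65, 6.52, 6.70 and 2.90 in PBS replicates 1 to 4, and 4.27, 4.36, 4.78 and 4.78 in gluconate replicates 1 to 4. The gluconate tumors lay close together below PBS replicates 1 to 3, and PBS replicate 4 lay below all of them, so that the groups of 4 overlapped.
PBS replicate 4 rested on 25 fragments of SNAI2, with a 95% Poisson interval of 1.88 to 4.28 FPKM that reached the lowest gluconate value. Such intervals cover counting error only. The other libraries held 375 to 662 fragments.
With all 8 libraries, PBS tumors averaged 5.45 ± 1.76 FPKM (SD, n = 4) and gluconate tumors 4.55 ± 0.271 FPKM (SD, n = 4). The log2 difference was -0.19 (SE 0.24, adjusted p = 0.802 from limma) with p = 0.60 in a two-sided exact permutation test of 70 splits. Without PBS replicate 4, the PBS mean was 6.29 ± 0.562 FPKM (SD, n = 3) and the gluconate mean was 72.2% of it. The log2 difference was then -0.46 (SE 0.09) with an unadjusted p of 0.000552 and an adjusted p of 0.799 from limma. The exact permutation test gave p = 0.0286, the smallest that 3 against 4 libraries allow. Voom, which gives less weight to values from few fragments, put the difference at -0.39 (SE 0.16, unadjusted p = 0.0369, adjusted p = 0.901 from limma) with all 8 libraries. In the fit on log2(FPKM + 0.1), the difference was -0.0777 (SE 0.26) without PBS replicate 2 and -0.0648 (SE 0.25) without PBS replicate 3.

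ZEB2, a zinc-finger repressor of CDH1, did not differ between the groups beyond the spread of the PBS tumors. Its gene spans chromosome 2 (minus strand), 144384081 to 144520119. Its FPKM was 8.53, 8.43, 4.70 and 33.6 in PBS replicates 1 to 4, and 5.89, 7.07, 5.94 and 5.57 in gluconate replicates 1 to 4. PBS replicate 4 was far above the other 7 libraries, from 1230 fragments with a 95% Poisson interval of 31.7 to 35.5 FPKM, and PBS replicate 3 was below every gluconate tumor.
The log2 difference was -0.75 (SE 0.49, adjusted p = 0.740 from limma; exact permutation p = 0.257). It was -0.19 (SE 0.19, adjusted p = 0.852 from limma) without PBS replicate 4 and -1.13 (SE 0.44, unadjusted p = 0.0320 from limma) without PBS replicate 3.
The antisense gene ZEB2-AS1 had 1.43, 2.80, 1.28 and 17.1 FPKM in PBS replicates 1 to 4 and 0.355 to 2.12 FPKM in gluconate tumors. It was thus also highest in PBS replicate 4. Whether counting used the strand is not given in the sources used here, so fragments of ZEB2 and of ZEB2-AS1 cannot be told apart where they overlap.

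ZEB1, the paralog of ZEB2, was the steadiest of the tested members across the other 7 libraries, its highest value being 1.31 times its lowest. Its gene spans chromosome 10 (plus strand), 31318417 to 31529804. Its FPKM was 3.42, 2.66, 2.69 and 2.81 in PBS replicates 1 to 4, and 2.91, 3.48, 2.80 and 2.96 in gluconate replicates 1 to 4. The groups lay on top of each other, and PBS replicate 4, with 91 fragments, was within the range of the others.
The log2 difference was 0.07 (SE 0.13, adjusted p = 0.855 from limma), and it was 0.06 (SE 0.12) without PBS replicate 4. It was 0.15 (SE 0.13) without PBS replicate 1 and 0.0046 (SE 0.14) without gluconate replicate 2. The level of ZEB2 was 1.74 to 3.17 times that of ZEB1 in 7 libraries and 12.0 times in PBS replicate 4.

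TWIST1, a basic helix-loop-helix factor that promotes N-cadherin expression, differed little between the groups. Its gene is on chromosome 7 (19113047 to 19117636). Its FPKM was 9.60, 9.26, 8.80 and 14.4 in PBS replicates 1 to 4, and 8.46, 8.27, 8.88 and 11.4 in gluconate replicates 1 to 4. PBS replicate 4 and gluconate replicate 4 were the highest of their groups. The log2 difference was -0.17 (SE 0.17, adjusted p = 0.766 from limma) and -0.01 (SE 0.11, adjusted p = 0.993) without PBS replicate 4, with exact permutation p of 0.486 and 1.00.

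**Figure D2:**
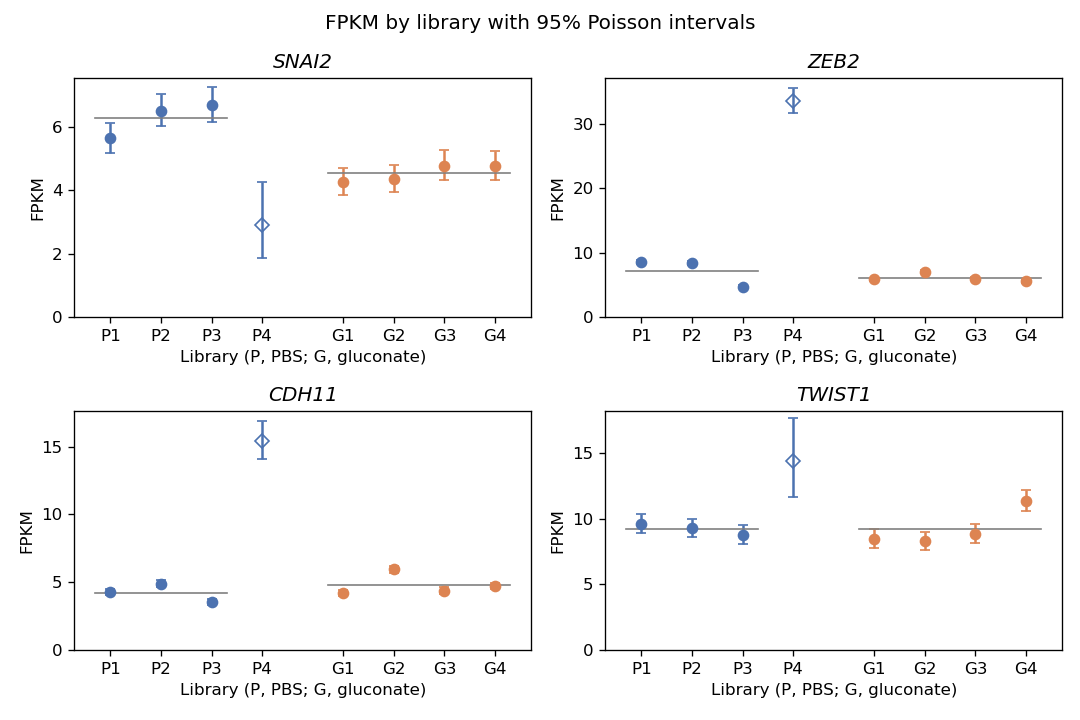
FPKM of SNAI2, ZEB2, CDH11 and TWIST1 in each library (P, PBS in blue with replicate 4 as an open diamond; G, gluconate in orange), with 95% Poisson intervals and grey lines at the means of PBS replicates 1 to 3 and of the gluconate replicates. SNAI2 lies between 5.65 and 6.70 FPKM in PBS replicates 1 to 3 and between 4.27 and 4.78 FPKM in gluconate tumors, while ZEB2 and CDH11 stand out in PBS replicate 4 at 33.6 and 15.4 FPKM.

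Among the cadherins, CDH2 had the highest value in every library, but in PBS replicate 4 CDH11 was at 0.869 of it (0.161 to 0.303 in the others) and their 95% Poisson intervals, 14.1 to 16.9 FPKM for CDH11 and 15.9 to 19.8 FPKM for CDH2, overlapped. Its gene is on chromosome 18 (27932879 to 28177130), those of CDH1 (68737292 to 68835537) and CDH11 (64943753 to 65123744) on chromosome 16 and that of CDH6 on chromosome 5 (31193686 to 31329146). N-cadherin joins mesenchymal and neural cells. The FPKM of CDH2 was 23.0, 24.8, 17.9 and 17.8 in PBS replicates 1 to 4, and 22.8, 19.7, 27.3 and 23.1 in gluconate replicates 1 to 4. The groups overlapped, and PBS replicates 3 and 4 were the lowest of all.
It averaged 20.9 ± 3.58 FPKM (SD, n = 4) in PBS and 23.2 ± 3.11 FPKM (SD, n = 4) after gluconate, which gave a log2 difference of 0.16 (SE 0.14, adjusted p = 0.743 from limma). Without PBS replicate 4 it was 0.09 (SE 0.13, adjusted p = 0.906 from limma).

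CDH1 was close to the limit of detection. It had 13, 18, 31 and 0 fragments in PBS replicates 1 to 4 and 21, 20, 12 and 11 fragments in gluconate replicates 1 to 4. This gave 0.0584, 0.0793, 0.159 and 0 FPKM in PBS tumors, and 0.107, 0.0958, 0.0626 and 0.0528 FPKM in gluconate tumors. At the depth of PBS replicate 4, 3 fragments would give 0.156 FPKM and the 95% Poisson interval of a count of 0 reached 0.191 FPKM, so its level could not be set apart from the other libraries.
PBS and gluconate tumors differed by 0.11 in mean log2(FPKM + 0.1) (exact permutation p = 0.743) and -0.13 without PBS replicate 4 (exact permutation p = 0.629). With all 8 libraries the value was 0.0087 with a pseudocount of 1 and 0.611 with one of 0.01, so its size rested on the pseudocount. The level of CDH2 was 112 to 438 times that of CDH1 in the 7 deeper libraries, and CDH1 had no fragment in PBS replicate 4.

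CDH11 encodes a cadherin of osteoblasts and mesenchymal cells, and CDH6 a cadherin of kidney and ovarian carcinomas. The FPKM of CDH11 was 4.27, 4.90, 3.53 and 15.4 in PBS replicates 1 to 4, and 4.20, 5.96, 4.39 and 4.72 in gluconate replicates 1 to 4. PBS replicate 4 was 2.59 times the highest of the other 7, from 460 fragments, and the other 7 overlapped.
Its log2 difference changed sign with that library. It was -0.28 (SE 0.40, adjusted p = 0.815 from limma) with it and 0.18 (SE 0.14, adjusted p = 0.823 from limma) without it. CDH6 had 3 to 23 fragments per library and 0.0116 to 0.0755 FPKM. On the log2(FPKM + 0.1) scale its means differed by -0.12 (exact permutation p = 0.486) and by -0.011 without PBS replicate 4. The first value was -0.0161 with a pseudocount of 1 and -0.349 with one of 0.01, and at this depth no difference was detectable.

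EPCAM, a surface glycoprotein of most epithelia and carcinomas, was far above CDH1 in every library. Its gene is on chromosome 2 (47369311 to 47387020). Its FPKM was 16.5, 17.8, 22.3 and 10.3 in PBS replicates 1 to 4, and 17.5, 16.4, 15.7 and 17.9 in gluconate replicates 1 to 4. PBS tumors held both the highest and the lowest value, and the gluconate tumors lay between them. EPCAM was 140 to 339 times as high as CDH1 in the 7 deeper libraries.
The log2 difference was 0.06 (SE 0.20, adjusted p = 0.913 from limma) and turned to -0.15 (SE 0.10, adjusted p = 0.816 from limma) without PBS replicate 4. Scaling by median ratios also turned it, to a value of -0.0033.

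VIM, the intermediate filament of mesenchymal cells, was among the most abundant genes of the table. It is encoded on chromosome 10 (17228241 to 17237593), where the antisense gene VIM-AS1 is also listed. It ranked between 20 and 49 of all genes in each library. Its FPKM was 1770, 1541, 1206 and 2082 in PBS replicates 1 to 4, and 1636, 1699, 1638 and 1839 in gluconate replicates 1 to 4. The gluconate tumors lay within a narrow band, and the PBS tumors reached below and above it.
It averaged 1650 ± 370 FPKM (SD, n = 4) in PBS and 1703 ± 95.4 FPKM (SD, n = 4) after gluconate, which gave a log2 difference of 0.07 (SE 0.15, adjusted p = 0.866 from limma). It was 0.19 (SE 0.12, adjusted p = 0.813 from limma) without PBS replicate 4 and -0.07 without PBS replicate 3. The level of VIM was 54.0 to 108 times that of EPCAM in 7 libraries and 202 times in PBS replicate 4.

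**Figure D3:**
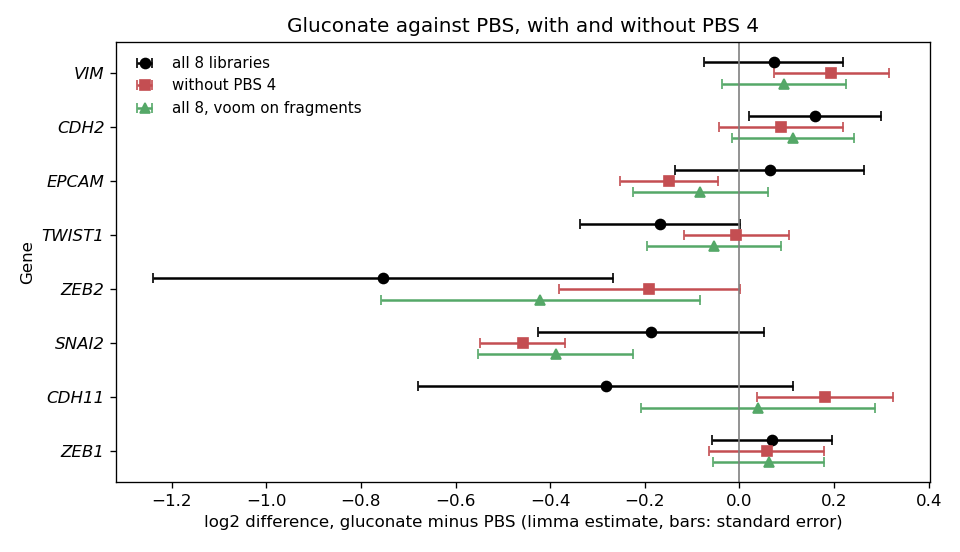
Log2 difference of gluconate minus PBS tumors for the 8 tested members (limma estimate, bars are standard errors), with all 8 libraries (black), without PBS replicate 4 (red) and with voom on all 8 (green). SNAI2 stands at -0.19, -0.46 and -0.39, ZEB2 moves from -0.75 to -0.19 without PBS replicate 4, and CDH11 and EPCAM change sign.

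PBS replicate 4 lay outside the range of the other 7 libraries in most members and in most genes tested, and it is described here because several differences between the groups changed without it. It was above all of them in CDH11, VIM, ZEB2 and TWIST1, which is 4 of the 8 tested members, beside 13.7% of all genes. It was below all of them in CDH2, EPCAM and SNAI2, beside 58.0% of all genes, and within their range in ZEB1. For CDH2 the gap was small, at 17.8 FPKM (95% Poisson interval 15.9 to 19.8) against a lowest value of 17.9 FPKM. ZEB2 stood at 5.65 times the median of the other 7, CDH11 at 3.52 times, TWIST1 at 1.63 times and VIM at 1.27 times. EPCAM stood at 0.588 times and SNAI2 at 0.607 times that median.
Of the 11 other tested factors of the transition, 4 were above and 4 below all other libraries in PBS replicate 4, beside the same 13.7% and 58.0% of all genes. SOX4 was at 60.1 FPKM against 6.53 to 10.5 FPKM in the others, TWIST2 at 20.0 against 7.45 to 10.9, PRRX1 at 4.62 against 0.718 to 1.42 and TCF4 at 4.25 against 0.581 to 0.791 FPKM. TCF3 was below the others, at 12.2 against 15.6 to 19.7 FPKM, as were SNAI1 at 3.56 against 4.80 to 7.02, GSC at 0.222 against 0.550 to 1.51 and KLF8 at 0.147 against 0.387 to 0.693 FPKM. The marker lists moved unevenly. The summed FPKM of 7 granulosa and theca markers was 22.9 in PBS replicate 4. It was 5.65 to 6.90 in PBS replicates 1 to 3 and 3.65 to 5.54 in gluconate tumors. The high sum rested on FOXL2 alone, at 21.5 FPKM, while 5 of the 7 markers were at 0. The remaining marker, AMH, was lower there, at 1.40 FPKM against 1.73 to 4.03 FPKM in the other 7 libraries. The sum of 8 fibroblast markers was lower, at 44.7 against 128 to 184 and 164 to 190 FPKM, and it rested on COL1A1. How fragments of the mouse host were handled is not given in the sources used here, so these markers do not show which cells were present. The part of depth in the members' values, and of any other cells, was not tested.

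**Figure D4:**
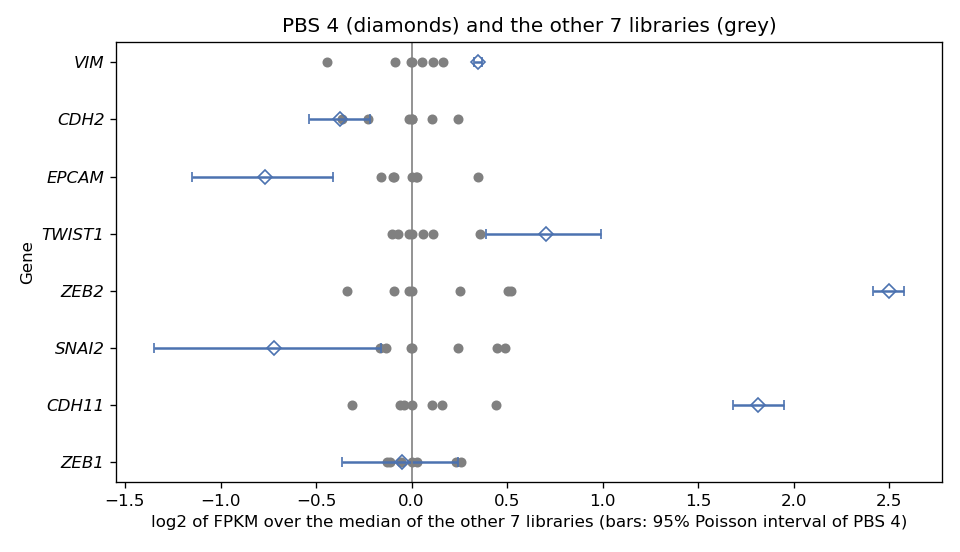
FPKM of the 8 tested members as log2 of the ratio to the median of the 7 libraries other than PBS replicate 4, with those 7 in grey and PBS replicate 4 as a diamond with its 95% Poisson interval. ZEB2 and CDH11 lie at 5.65 and 3.52 times the median, EPCAM and SNAI2 below it at 0.588 and 0.607 times.

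The partners of these genes were followed in 9 lists, none of whose genes passed an adjusted p under 0.05 in limma. The median log2 difference over all genes tested was 0.07 and it was -0.00309 without PBS replicate 4. Of 18 other cadherins, 12 had values here and 2 were tested, with 0 at an unadjusted p under 0.05. CDH24 was the highest of them at a mean of 4.74 FPKM, and CDH3, P-cadherin, had the lowest p, with a log2 difference of 0.42 (SE 0.22, adjusted p = 0.740 from limma), or 0.31 (SE 0.20) without PBS replicate 4. Of the 10 catenins and partners, which link cadherins to actin, 7 were tested and 0 passed. CTNNB1 (β-catenin) was at 86.8 ± 9.38 and 82.3 ± 5.16 FPKM (SD, n = 4 each), and JUP (plakoglobin) had a log2 difference of 0.26 (SE 0.15), or 0.20 (SE 0.14) without PBS replicate 4.

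Of 13 other transcription factors of the transition, 11 were tested and 0 passed, with a median log2 difference of 0.01, or -0.03 without PBS replicate 4. TCF3 was the one with the highest mean, at 16.5 FPKM, and GSC the one with the lowest p, at a log2 difference of 0.81 (SE 0.44) that was 0.40 (SE 0.30) without PBS replicate 4. Of 13 epithelial transcription and splicing factors, 10 were below the minimum of 0.5 FPKM. KLF5 and KLF4, zinc-finger factors of epithelial cells, were at 18.3 and 8.15 FPKM on average, with log2 differences of -0.02 (SE 0.11) and 0.24 (SE 0.26), or -0.09 (SE 0.09) and 0.10 (SE 0.24) without PBS replicate 4. The 8 co-repressors that ZEB and SNAIL factors recruit were all tested and 0 passed, with a median log2 difference of 0.03, or -0.01 without PBS replicate 4. HDAC1, a histone deacetylase, was at 46.1 ± 7.50 and 45.8 ± 3.79 FPKM (SD, n = 4 each), and CTBP1, which binds the ZEB factors, had a log2 difference of 0.18 (SE 0.12), or 0.06 (SE 0.07) without PBS replicate 4.

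Of 18 epithelial surface and desmosome genes, 12 were tested, and 1 was higher in gluconate tumors at an unadjusted p under 0.05, beside 4.62% of all genes. It was MUC1, a membrane mucin, at 5.81 ± 0.161 FPKM (SD, n = 4) in PBS and 7.47 ± 1.17 FPKM (SD, n = 4) after gluconate. Its log2 difference was 0.35 (SE 0.12, unadjusted p = 0.0146, adjusted p = 0.740 from limma) and 0.34 (SE 0.11) without PBS replicate 4. The median log2 difference of the list was 0.14, and 0.07 without PBS replicate 4. ERBB3 then also passed, with a log2 difference of 0.16 (SE 0.07, unadjusted p = 0.0483 from limma), so that 2 of 12 did beside 6.21% of all genes.
Of 14 mesenchymal genes, 13 were tested and 2 were higher in gluconate tumors at an unadjusted p under 0.05, beside 4.62% of all genes. TAGLN, an actin-binding protein of smooth muscle, was at 18.3 ± 11.3 and 39.5 ± 11.5 FPKM (SD, n = 4 each), a log2 difference of 1.27 (SE 0.41, unadjusted p = 0.0122, adjusted p = 0.740 from limma). TGFBI, an extracellular protein induced by TGF-β, was at 111 ± 48.5 and 190 ± 48.0 FPKM (SD, n = 4 each), a log2 difference of 0.88 (SE 0.36, unadjusted p = 0.0337, adjusted p = 0.740 from limma). Without PBS replicate 4 these were 0.89 (SE 0.30) and 0.50 (SE 0.20), still at an unadjusted p under 0.05, and LOXL2 moved from 0.17 to 0.37 (SE 0.10, unadjusted p = 0.0058 from limma), so that 3 of 13 passed beside 6.21% of all genes. With all 8 libraries, the other tested mesenchymal genes had log2 differences from -0.30 for NT5E to 0.52 for ACTA2. Without PBS replicate 4, NT5E was at -0.16 and ACTA2 at 0.05, and the genes other than TAGLN, TGFBI and LOXL2 reached from -0.34 for CNN1 to 0.30 for TNC. The median of the list was 0.15, or 0.05 without PBS replicate 4.

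Of the 8 other intermediate filament genes, 4 were tested and 0 passed. INA was the highest at 21.7 FPKM on average, and SYNM had a log2 difference of 0.22 (SE 0.16), or 0.10 (SE 0.11) without PBS replicate 4. Of the miRNA host and ZEB antisense genes, MIR205HG was looked for but had no values here. ZEB2-AS1 had a log2 difference of -1.54 (SE 0.79, adjusted p = 0.740 from limma) and of -0.73 (SE 0.49) without PBS replicate 4. ZEB1-AS1 was at 0.464 to 0.821 FPKM in 7 libraries and at 1.11 FPKM in PBS replicate 4.

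**Figure D5:**
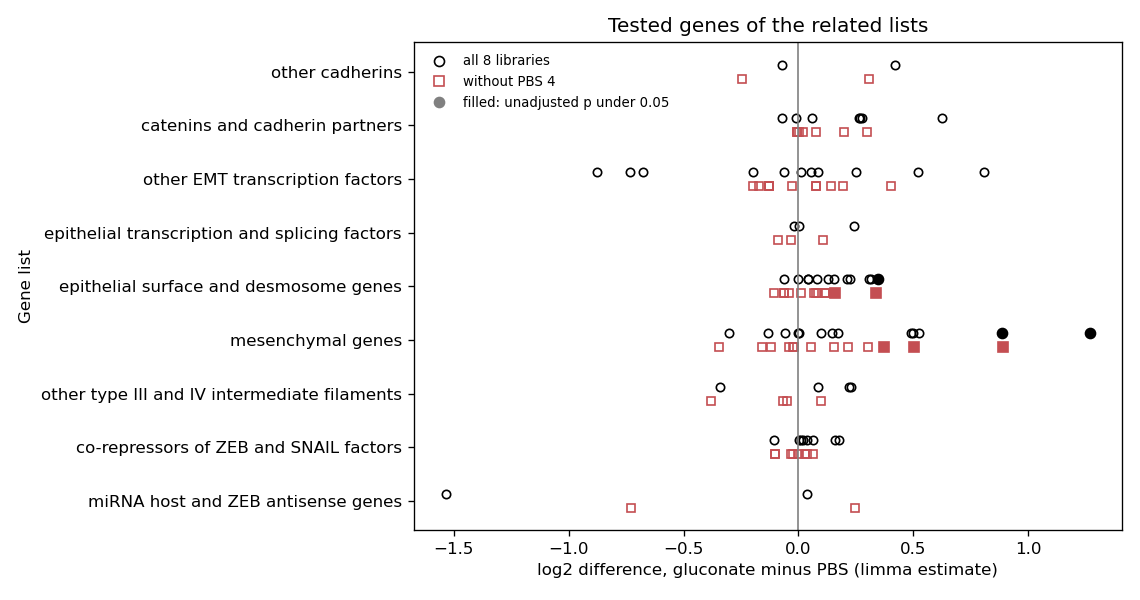
Log2 difference of gluconate minus PBS tumors for the tested genes of the 9 related lists, with all 8 libraries (black circles) and without PBS replicate 4 (red squares), and filled symbols at an unadjusted p under 0.05. The filled symbols are MUC1, TAGLN and TGFBI with all libraries, and those 3 with ERBB3 and LOXL2 without PBS replicate 4.

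The gene most like each tested member other than VIM over the 7 libraries without PBS replicate 4 was named by Pearson's r of log2(FPKM + 0.1), as a description. Each r pools 3 PBS and 4 gluconate libraries, and both genes of a pair were measured in the same libraries. Over all tested genes the median of the highest r was 0.983. The nearest genes were GFM1 for ZEB2 (r = 0.990), PCSK6 for CDH11 (r = 0.986), NT5C3B for EPCAM (r = 0.984), KLHL18 for SNAI2 (r = 0.982), SLC39A8 for TWIST1 (r = 0.971), EMID1 for ZEB1 (r = 0.970) and DNAJC5 for CDH2 (r = 0.953).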

How the data were processed

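The deposited table holds FPKM values of 24196 gene symbols, computed by the authors on GRCh38 per the labels from polyA libraries. The aligner, the counting and the annotation are not given in the sources used here. Columns headed C and T were read as PBS and gluconate, since the study plots gluconate against PBS as the ratio of T to C and these are its groups of 4, and the number was read as the replicate. This reading is an inference. All columns were used (0 unmapped).

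All genes gave whole fragments in every library within 0.001 fragment, and depths, Poisson intervals and the floor of 3 fragments rest on these. Log2(FPKM + 0.1) of the 12486 genes with a mean of at least 0.5 FPKM was fitted with limma 3.58.1 in R 4.3.3 (lmFit, eBayes with a trend), two-sided, and p was adjusted over all tested genes by Benjamini-Hochberg. The script was tested on simulated data. Single members were also compared by exact permutation on the size of the difference. Limma's p-values set the difference between groups against the spread between these libraries, moderated over genes. That spread may be partly technical. A related list names its genes at an unadjusted p under 0.05, otherwise its highest gene and that with the lowest p. SOX4, TWIST2, PRRX1, TCF4, SNAI1, KLF8, NT5E, ACTA2, CNN1, TNC, ERBB3, LOXL2, ZEB1-AS1 and single markers were named after their values were seen. Members and lists were chosen with earlier results of these data known. The alternatives were pseudocounts of 1 and 0.01, no minimum or one of 1 FPKM, median-ratio and quantile scaling, voom on the fragments, the replicate number as a block, and each library left out. The gene most like VIM is not reported here.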

Additional observations from a re-analysis of the deposited data

Results flagged for a closer look

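Within groups of 4 libraries, the gap of an extreme library to its nearest neighbour was set against Dixon's 95% critical value. It was above that value in 3 of the 20 groups examined (10 genes in PBS and in gluconate tumors). Chance flags about 1 in 20 independent groups, but these groups share their libraries. The share flagged over all genes was not computed, so the count does not set these genes apart. All 3 were PBS replicate 4, which was above the other 7 libraries in 13.7% of all genes tested and below them in 58.0%. CDH11 was at 15.4 FPKM there against 3.53 to 4.90 FPKM in the other PBS tumors. ZEB2 was at 33.6 FPKM against 4.70 to 8.53 FPKM. TWIST1 was at 14.4 FPKM against 8.80 to 9.60 FPKM.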

How the results depend on the processing

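The count of genes at an unadjusted p under 0.05 was 577 of 12486 tested and 1028 of 24196 tested with no filter on low values, and it lay between 267 and 1216 when each library was left out in turn. The genes whose groups do not overlap numbered 436, and 613 to 1418 in turn with 1 library fewer, where fewer values make separation easier. Members at an unadjusted p under 0.05 went from 0 to 1 with voom (594 of 12486 genes passed) and to 0 or 1 when each library was left out (SNAI2 without PBS replicate 4, where 778 of 12530 genes passed, and ZEB2 without PBS replicate 3, where 501 of 12458 did). Members whose groups do not overlap were also 0 or 1 when each library was left out. They were SNAI2 without PBS replicate 4, beside 764 of 12530 genes, and ZEB2 without PBS replicate 3, beside 795 of 12458 genes. In settings chosen after seeing the data, without PBS replicate 4, voom, median ratio scaling and quantile normalization each gave 1 member, SNAI2, at log2 differences of -0.46, -0.46 and -0.45, beside 759, 784 and 787 of 12530 genes.

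CDH11 turned from -0.28 to 0.0395 with voom and to 0.18 with each of these 3 settings. EPCAM turned from 0.06 to -0.0033 with median ratio scaling, to -0.0824 with voom, and to -0.14, -0.15 and -0.14 with the 3 settings. ZEB1 turned from 0.07 to -0.0101 with quantile normalization, and TWIST1 to 0.0058 with quantile normalization without PBS replicate 4. Leaving out each library moved CDH11 from -0.52 to 0.18, EPCAM from -0.15 to 0.22, VIM from -0.0687 to 0.19 and CDH1 from -0.13 to 0.33. The other members kept their sign but changed in size. SNAI2 went from -0.46 to -0.0648, ZEB2 from -1.13 to -0.19 and TWIST1 from -0.27 to -0.0071. CDH2 went from 0.0796 to 0.25, ZEB1 from 0.0046 to 0.15 and CDH6 from -0.20 to -0.011. For these turns the cause was not tested. In all, 151 of 172 values of members kept their direction and their side of the threshold, 15 turned and 6 passed the threshold.

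With the replicate number as a block, 470 genes and 0 members passed. Deviations of libraries with the same number had r from -0.18 to 0.17, so the numbers were not taken as pairs. The depth of PBS replicate 4 limits CDH1, CDH6 and SNAI2 the most, and CDH1 and CDH6 were close to the detection limit in every library.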
